A study of Mus musculus with 24 samples.

Results

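Tgif2, Tcea1, their processed copies Tgif2-ps2 and Tcea1-ps1, and the meiotic gene Sycp1 were followed through 24 RNA-sequencing libraries of whole mouse kidney taken at embryonic day 18.5. They are 5 of the 54393 genes in the deposited count tables, matched by gene name. The genes were chosen by measured values, namely the reads of both copies and Sycp1, which were higher in all libraries labelled Dmrt2; Hmx3; Hmx2 KO (3XKO) than in their controls. Their levels in that comparison are therefore a description, and members were tested only in the other mouse lines. No numeric threshold was part of the choice.

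The libraries fall into 6 groups. They are 3 Dmrt2 KO and 3 Dmrt2 control kidneys, 6 Hmx3; Hmx2 KO and 6 control kidneys of that line, and 3 libraries labelled triple knockout with 3 controls. Controls were littermates of the knockouts. The study concerns the part of these 3 transcription factors in intercalated cells, which move acid and base in the collecting duct. In the Hmx3; Hmx2 line the column names of controls 1 to 3 mark them as WT, while those of controls 4 to 6 and of the other lines give no genotype. The labels used here do not describe the alleles or the background strain, nor whether the libraries of a group came from different embryos. The p-values below therefore reflect library-to-library spread, part of which may be technical.

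A processed copy arises when a spliced transcript is reverse transcribed and inserted elsewhere in the genome, so it has the exons of its parent without the introns and often lacks the parent's promoter. TGIF2, the parent of the first copy, is a homeodomain repressor that binds DNA and the SMAD proteins activated by TGF-beta. TCEA1, the parent of the second, is the elongation factor TFIIS, which lets arrested RNA polymerase II cut its nascent RNA and go on. SYCP1 is the transverse filament of the synaptonemal complex, the protein zipper between paired chromosomes in meiosis, and is known from germ cells.

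The copies differ so little from their parents that the sequence bears on every count below. Tgif2-ps2 (chromosome 17, 40426249 to 40427217 on mm39, plus strand) is annotated as a transcribed processed pseudogene with 969 bases of exon. Tgif2 lies on chromosome 2, from 156681927 to 156697490, plus strand, with 3832 bases of exon. Over 711 aligned bases of coding sequence the pair showed 3 substitutions and 0 gaps, an identity of 99.6%. Written as the parent base, the position counted from 1 at the 5′ end of the copy transcript, and the base of the copy, they are C129A, T219G and T303A. The copy kept the start codon, and no stop was found in frame. Its transcript as used here ends at the parent's base 977, before the parent's stop codon, which ends at base 980. Whether a stop follows was therefore not seen. The stretch of 300 bases that holds all 3 substitutions is shown for the copy (bases 14 to 313 of its transcript) and for the parent (bases 280 to 579 of transcript Tgif2-202), with the bases that differ in capitals.
Tgif2-ps2: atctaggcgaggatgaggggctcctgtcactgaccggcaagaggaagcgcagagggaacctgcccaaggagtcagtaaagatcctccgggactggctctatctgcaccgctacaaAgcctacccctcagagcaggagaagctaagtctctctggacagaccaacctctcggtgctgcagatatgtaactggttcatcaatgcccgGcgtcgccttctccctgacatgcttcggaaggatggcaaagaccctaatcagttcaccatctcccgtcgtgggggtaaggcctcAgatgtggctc
Tgif2: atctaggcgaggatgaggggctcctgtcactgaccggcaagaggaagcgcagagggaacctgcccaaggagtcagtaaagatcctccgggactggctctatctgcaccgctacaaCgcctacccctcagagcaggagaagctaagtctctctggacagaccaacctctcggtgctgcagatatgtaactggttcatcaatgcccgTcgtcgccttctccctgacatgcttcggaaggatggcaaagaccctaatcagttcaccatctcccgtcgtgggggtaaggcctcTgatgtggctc

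Tcea1-ps1 (chromosome 15, 90766818 to 90767721, plus strand) is a processed pseudogene of 904 bases, and Tcea1 (chromosome 1, 4928037 to 4968132, plus strand) has 3017 bases of exon. This pair showed 6 substitutions and 0 gaps over 904 bases, an identity of 99.3%: C156T, C421T, A643G, T654C, C671A and T819C. The substitution C421T falls in the first in-frame stop of the copy, which begins at base 421. The stretch of 300 bases shown holds 4 of the 6 substitutions, in capitals, and runs over bases 382 to 681 of the copy and 482 to 781 of transcript Tcea1-201.
Tcea1-ps1: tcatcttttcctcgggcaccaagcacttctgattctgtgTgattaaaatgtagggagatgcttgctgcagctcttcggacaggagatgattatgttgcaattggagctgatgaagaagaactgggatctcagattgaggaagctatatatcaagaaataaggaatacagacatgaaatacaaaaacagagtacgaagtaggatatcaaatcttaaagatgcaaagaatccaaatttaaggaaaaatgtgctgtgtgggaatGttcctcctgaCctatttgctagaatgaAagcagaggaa
Tcea1: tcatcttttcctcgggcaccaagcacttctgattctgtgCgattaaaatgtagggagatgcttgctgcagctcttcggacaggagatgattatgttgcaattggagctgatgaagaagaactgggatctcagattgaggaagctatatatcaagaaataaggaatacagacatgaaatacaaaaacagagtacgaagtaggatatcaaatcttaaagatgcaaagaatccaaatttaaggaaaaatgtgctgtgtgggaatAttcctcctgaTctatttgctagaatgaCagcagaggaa

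Both reads of a pair were 150 bases long, and reads that fit several places equally well were not counted. Of the 562 stretches of that length in the Tgif2-ps2 transcript, 259 (46.1%) occur letter for letter in the Tgif2 transcript. For Tcea1-ps1 in Tcea1 it was 193 of 755 (25.6%). A read from such a stretch can be assigned only through its mate, so the counts of both copies, and of the coding part of both parents, are uncertain there. The Tgif2-ps2 transcript compared is 711 bases long, while 969 bases of exon were counted, and the rest was not compared. Sycp1 (chromosome 3, 102725815 to 102843416, minus strand, 3556 bases of exon) has a processed copy too, Sycp1-ps1 on chromosome 7, with an identity of 95.4% over 2696 aligned bases. None of the 3288 stretches of that length in transcript Sycp1-201 occurs unbroken in it, and it held 0 reads in all 24 libraries.

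The targeted genes were checked first. Dmrt2 stood at 1.57 to 2.26 CPM (reads scaled to a common library total) in Dmrt2 KO and 12.4 to 14.8 CPM in control libraries. Hmx2 had at most 0.0606 CPM in Hmx3; Hmx2 KO libraries, against 1.57 to 2.27 CPM in controls. In the libraries labelled triple knockout Hmx2 was at most 0.0213 CPM, against 2.32 to 3.27 CPM in controls, but Dmrt2 was 17.9 to 19.8 CPM, against 10.5 to 11.95 CPM in controls. Hmx3 was too low to check the labels, with 0 to 4 reads in Hmx3; Hmx2 KO and 2 to 8 in control libraries, and 0 reads in each library labelled triple knockout against 2 to 14 in controls. The count of Dmrt2 was thus not lowered in these libraries, unlike in the Dmrt2 KO libraries. Since the alleles are not described, a count of RNA cannot settle this part of the label. Every direction given for these libraries rests on the label. None of the 5 genes shares a chromosome with Dmrt2 (19) or with Hmx2 and Hmx3 (7). Totals ran from 52286824 to 127339273 reads, and since each mate of a pair was counted, the floor of 3 read pairs was set at 6 reads, worth 0.0471 to 0.115 CPM. Intervals and floors cover counting error only.

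In libraries labelled triple knockout Tgif2-ps2 was the copy with the widest contrast, Tcea1-ps1 was present in every library at a low level, and Sycp1 was read on the knockout side only. Tgif2-ps2 held 354, 567 and 272 reads (3.59, 6.03 and 2.41 CPM) in the libraries labelled triple knockout, against 4, 3 and 2 reads (0.0362, 0.0277 and 0.0184 CPM) in controls. The groups were far apart, at 4.01 ± 1.85 CPM and 0.0274 ± 0.00892 CPM (SD, n = 3 each), a ratio of 146. The control side of that ratio rests on 9 reads in all. Whole kidneys were measured, so fewer cells of a type and less RNA per cell cannot be told apart here or below.

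Its parent was expressed in all of these libraries and differed much less. Tgif2 had 11.4, 8.08 and 8.16 CPM in libraries labelled triple knockout and 9.93, 11.1 and 11.1 CPM in controls. Replicate 1 of the first group was the highest of the 6 and replicates 2 and 3 the lowest, so the groups overlapped (9.23 ± 1.92 and 10.7 ± 0.66 CPM; SD, n = 3 each). Per kilobase of exon the copy stood at 124%, 295.03% and 117% of its parent in libraries labelled triple knockout, against 1.44%, 0.992% and 0.656% in controls. Library by library, then, the copy was above its parent per kilobase of annotated exon in all 3 of the first group. It was near 1% in all 3 of the second. The length used for Tgif2 is all 3832 bases of annotated exon, while its transcript Tgif2-202 has 2900 bases. A shorter parent length would lower these percentages, and 124% and 117% might not stay above the parent. The reads of both genes added together came to 10.6 to 15.02 CPM in libraries labelled triple knockout and 9.96 to 11.1 CPM in controls, ranges that overlap.

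**Figure D1:**
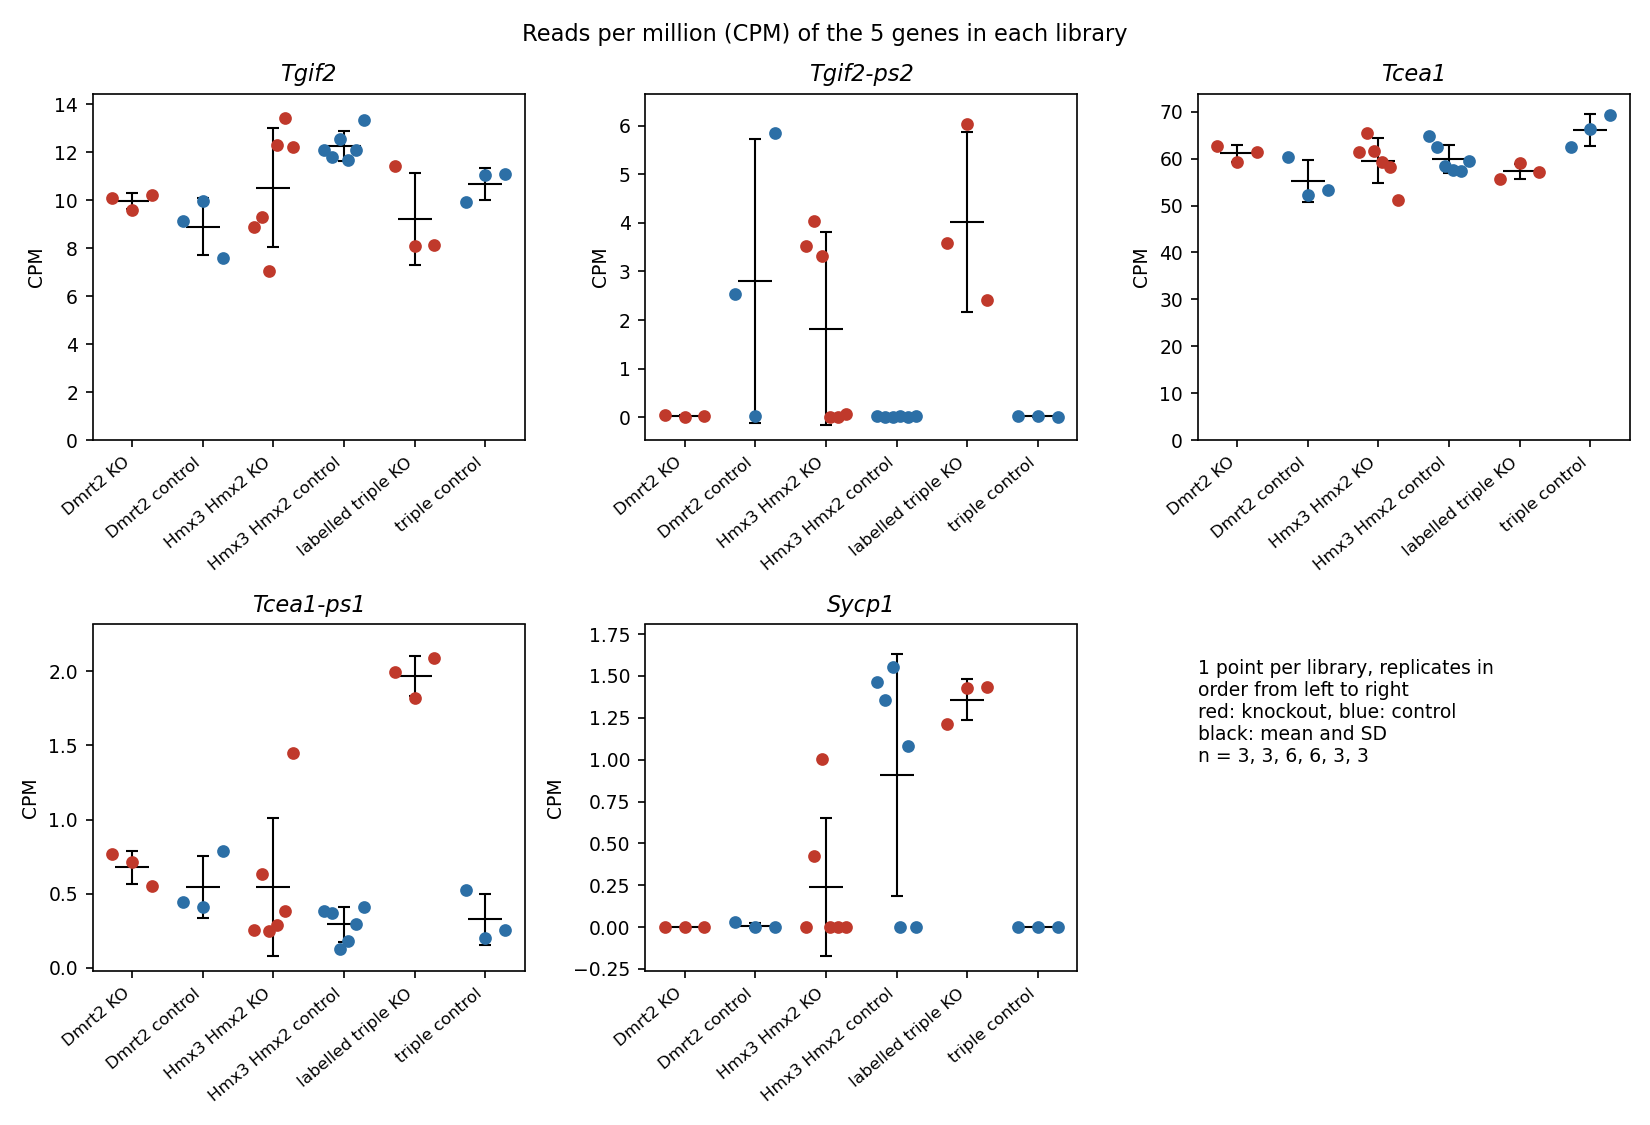
CPM of each of the 5 genes (y axes, linear) in every library, by group (x axes), with the knockout (red) to the left of its control (blue). Each point is a library, and black bars give the mean and SD. Tgif2-ps2 is either near 0 or clearly read within the Dmrt2 and Hmx3; Hmx2 lines, and so is Sycp1 within the Hmx3; Hmx2 line. Tgif2 (7.04 to 13.4 CPM) and Tcea1 (51.2 to 69.3 CPM) are read in every library.

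Tcea1-ps1 gave 197, 171 and 236 reads (2.00, 1.82 and 2.09 CPM) in libraries labelled triple knockout and 58, 22 and 28 reads (0.525, 0.203 and 0.258 CPM) in controls. The means were 1.97 ± 0.136 and 0.329 ± 0.172 CPM (SD, n = 3 each), a ratio of 5.99, and the groups did not overlap. Unlike the other copy it was not near 0 in the controls. Tcea1, the parent, had 55.7, 59.0 and 57.2 CPM in libraries labelled triple knockout and 62.6, 66.3 and 69.3 CPM in controls. All 3 of the first group were below all 3 of the second, at 86.7% of the control mean. The copy per kilobase was 11.96%, 10.3% and 12.2% of its parent in libraries labelled triple knockout, against 2.80%, 1.02% and 1.24% in controls. Tcea1-ps1 thus stayed a small part of the parent's level in each of these libraries. Tgif2-ps2, where it was clearly read, was near its parent or above it, depending on the length taken for Tgif2.

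Sycp1 gave 120, 134 and 162 reads (1.22, 1.43 and 1.43 CPM) in libraries labelled triple knockout and 0 reads in each of the 3 controls. Its mean of 1.36 ± 0.123 CPM (SD, n = 3) is at least 74.2-fold higher than the floor of 6 reads summed over the control group. A count of 0 of 108185205 to 110421376 reads does not show that the gene is silent. Among the 24 genes of meiotic chromosome pairing and recombination examined beside it, 23 were in the tables and 13 could be tested in the triple comparison. None of the 13 was called, meaning past an adjusted p of 0.05 in edgeR's quasi-likelihood test, in a comparison where 1.03% of all tested genes were. An unadjusted p under 0.05 was reached by 2 of the 13, Msh5 and Syce2, against 17.9% of all genes tested. DESeq2 called 1 of 10, Msh5, in a comparison where it called 5.69% of genes. Their median log2 fold change was 0.40, against 0.00098 over all tested genes.

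**Figure D2:**
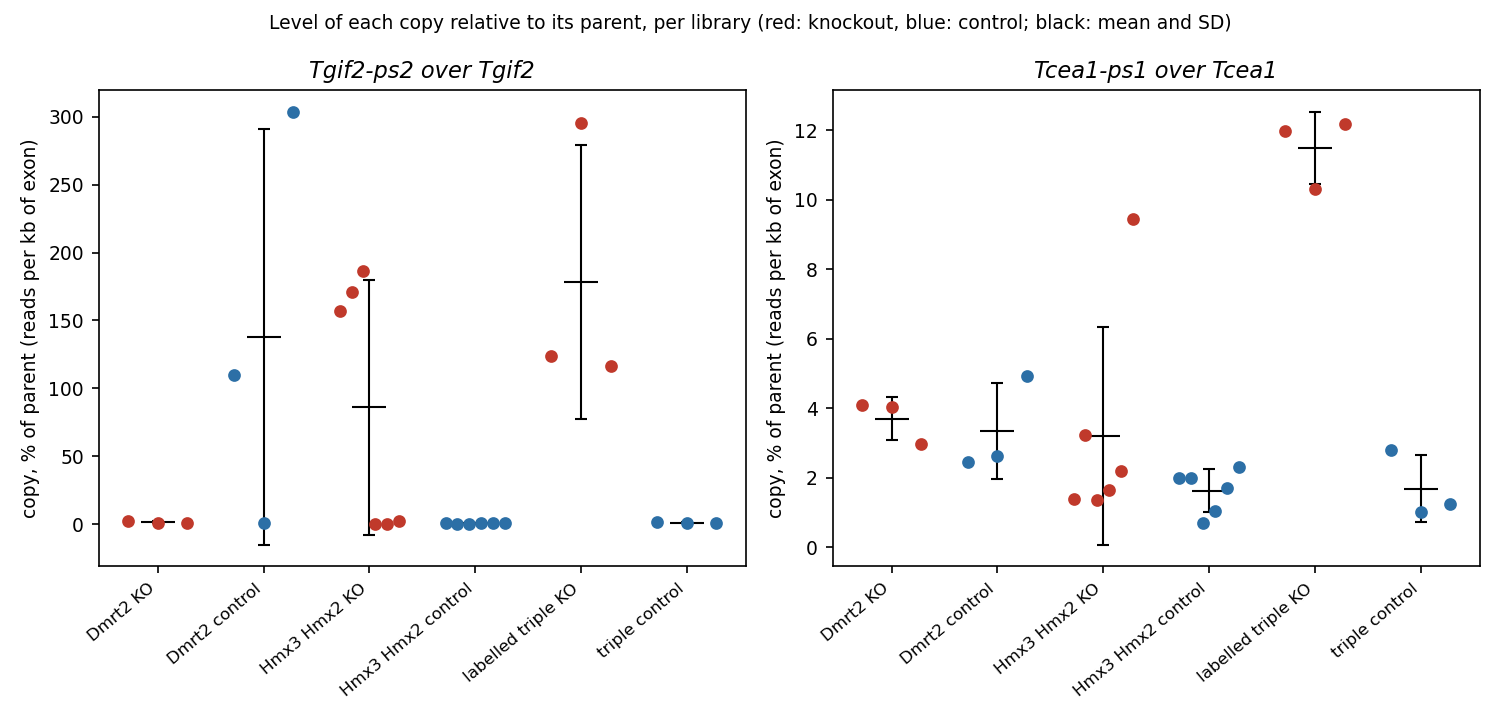
Level of each copy as a percentage of its parent, in reads per kilobase of exon (y axes, linear), for every library by group (x axes), with mean and SD in black. Tgif2-ps2 ranges from 0% to 303.4% of Tgif2, and Tcea1-ps1 from 0.711% to 12.2% of Tcea1.

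The Dmrt2 line, which did not enter the choice of genes, showed Tgif2-ps2 on the control side. The copy held 4, 1 and 4 reads in Dmrt2 KO libraries, against 182, 2 and 415 reads in controls, which is 0.0591, 0.0162 and 0.0314 CPM against 2.53, 0.0257 and 5.84 CPM. Control replicates 1 and 3 were high, while control replicate 2 lay within the range of the knockouts, so the groups overlapped. Tgif2 had 10.1, 9.60 and 10.2 CPM in Dmrt2 KO and 9.12, 9.96 and 7.61 CPM in control libraries. The copy was 0.669% to 2.31% of Tgif2 per kilobase in Dmrt2 KO libraries, and 110%, 1.02% and 303.4% in controls 1, 2 and 3. The control library with the most copy reads had the lowest Tgif2 of the 6, though the sum of both genes there was the highest, at 13.4 CPM.

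Tcea1 and its copy were close in both groups of this line. Tcea1 had 62.8, 59.2 and 61.5 CPM in Dmrt2 KO libraries, against 60.3, 52.2 and 53.2 CPM in controls. Tcea1-ps1 had 52, 44 and 70 reads (0.768, 0.715 and 0.550 CPM) in Dmrt2 KO libraries, against 32, 32 and 56 reads (0.446, 0.411 and 0.788 CPM) in controls. For the parent 1 control lay among the knockouts, and for the copy the highest value of all 6 was a control. Sycp1 held 0 reads in all 3 Dmrt2 KO libraries and 2, 0 and 0 reads in controls, both at or under the floor.

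Of the 5 genes 3 passed the filter on low counts in the Dmrt2 comparison, and 0 were called, in a comparison with 0.444% of genes called. Tcea1 was the 1 gene of the 3 at an unadjusted p under 0.05, as were 12.3% of all genes, and DESeq2 called none of these 3. The log2 fold change was 0.16 ± 0.11 SE for Tgif2 (adjusted p = 0.623), 0.14 ± 0.06 for Tcea1 (adjusted p = 0.383) and 0.29 ± 0.34 for Tcea1-ps1 (adjusted p = 0.794), all by edgeR's quasi-likelihood test. Tgif2-ps2 was below the filter and was fitted without it, which gave −6.26 ± 2.16 (adjusted p = 0.475; 2.10% of genes called). DESeq2, which called 2.43% of the genes it tested, gave −6.32 ± 1.63 for the copy with an adjusted p of 0.00850. Where a library was left out, the copy passed the filter in 4 of 6 fits, each time only through its high controls. Without control replicate 2, the low control, edgeR called the copy (−6.84 ± 0.49, adjusted p = 1.7e-04), and without any 1 knockout it did not (adjusted p = 0.560 to 0.776). The first of these fits leaves out the control that went the other way, so its call is not used as support. Whether Tgif2-ps2 is called in this line depends on the method and, in the filtered fits, on that library. All of these fits put it lower in Dmrt2 KO.

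In the Hmx3; Hmx2 line Tgif2-ps2 was on the knockout side, and only in part of the libraries. It held 220, 266, 185, 0, 0 and 4 reads in knockout replicates 1 to 6, against 2, 0, 0, 2, 1 and 2 reads in control replicates 1 to 6. Knockout replicates 1 to 3, deposited in a table of their own together with controls 1 to 3, were all high (3.53, 4.03 and 3.31 CPM). Replicates 4 to 6, deposited in the second table, were all under the floor (0, 0 and 0.0762 CPM). What sets the 2 tables apart is not given in the sources used here. Within replicates 1 to 3 the knockouts held 671 reads and the controls 2, a ratio of pooled CPM of 426 with a 95% interval of 76.4 to 16816 from the exact Poisson limits of 1 pair, taking the 2 reads as its mates. Within replicates 4 to 6 it was 4 against 5 reads, both under the floor.

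Tgif2 went with the same division of the tables. It had 8.90, 9.31 and 7.04 CPM in knockout replicates 1 to 3, against 12.1, 11.8 and 12.6 CPM in control replicates 1 to 3. These did not overlap. In replicates 4 to 6 the knockouts had 12.3, 13.4 and 12.2 CPM and the controls 11.7, 12.1 and 13.4 CPM, which did. Per kilobase the copy stood at 157%, 171% and 186% of Tgif2 in knockouts 1 to 3 and at 0% to 2.47% in knockouts 4 to 6, against 0% to 1.22% in the 6 controls. The reads of both genes together were 10.4 to 13.4 CPM in Hmx3; Hmx2 KO and 11.7 to 13.4 CPM in control libraries.

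**Figure D3:**
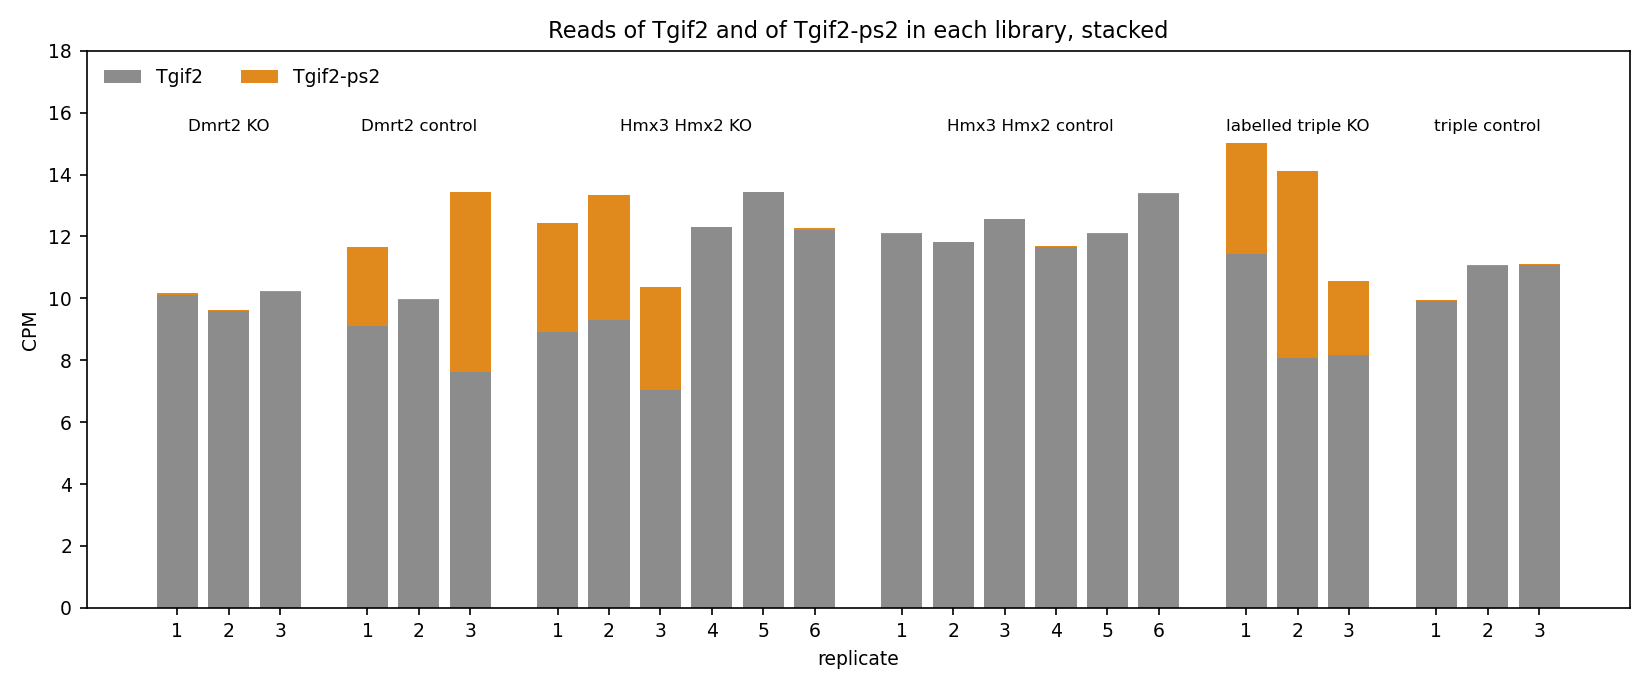
CPM of Tgif2 (grey) and Tgif2-ps2 (orange) stacked (y axis, linear from 0) for each library, by group and replicate number (x axis). Libraries with a visible orange part are Dmrt2 controls 1 and 3, Hmx3; Hmx2 KO 1 to 3 and the 3 labelled triple knockout, and the stacked sum ranges from 9.62 to 15.02 CPM.

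Sycp1 was read on both sides of the Hmx3; Hmx2 comparison. It had 0, 0.424, 1.00, 0, 0 and 0 CPM in knockout replicates 1 to 6 (0 to 56 reads), against 1.46, 1.36, 1.56, 0, 1.08 and 0 CPM in control replicates 1 to 6 (0 to 124 reads). Controls 1 to 3 were above every knockout, while controls 4 and 6 held no read, so the groups overlapped. In replicates 4 to 6 control 5 held 66 reads and the 3 knockouts 0, which puts the knockouts at least 10.04-fold below the controls if all 3 together are given 6 reads. That value rests on a single library. In replicates 1 to 3 the knockouts had 84 reads and the controls 338. Over these libraries and those labelled triple knockout, the presence of Sycp1 reads was not tied to 1 genotype: it was read in 3 of 3 libraries labelled triple knockout, 2 of 6 Hmx3; Hmx2 KO and 4 of 6 of that line's controls.

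Tcea1 and Tcea1-ps1 were again similar on both sides. Tcea1 had a median of 60.4 CPM (51.2 to 65.5) in Hmx3; Hmx2 KO and 58.9 CPM (57.3 to 64.7) in control libraries. Tcea1-ps1 had a median of 0.337 CPM (0.251 to 1.45) in Hmx3; Hmx2 KO and 0.333 CPM (0.124 to 0.410) in controls. Knockout replicate 6 was the library with the highest copy level outside those labelled triple knockout, with 76 reads and the lowest Tcea1 of the 24 libraries, 51.2 CPM. There the copy reached 9.44% of its parent per kilobase, against 1.36% to 3.24% in the other 5 knockouts.

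None of the 4 genes that passed the filter in the Hmx3; Hmx2 comparison was called (0.021% of genes called). Tgif2 was the 1 gene at an unadjusted p under 0.05, as were 4.93% of all genes. DESeq2 called 0 members and 0.0147% of genes. By edgeR's quasi-likelihood test with the table as a term, the log2 fold change was −0.24 ± 0.10 SE for Tgif2, −0.0055 ± 0.038 for Tcea1, 0.81 ± 0.45 for Tcea1-ps1 and −2.31 ± 1.15 for Sycp1. Their adjusted p-values were 0.944, 0.992, 0.944 and 0.944 in the same order. The size for Sycp1 depends on the method, at −4.43 ± 2.12 with DESeq2. Tgif2-ps2, fitted without the filter, had 6.44 ± 1.12 and an adjusted p of 0.350 (0.0117% called). With DESeq2 the copy had 4.29 ± 1.53 (adjusted p = 0.996), so its size depends on the method too. The controls of this line held 7 reads of it in all.

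Each table was also fitted alone. With replicates 1 to 3 and no filter, Tgif2-ps2 was called at 8.46 ± 0.44 (adjusted p = 5.8e-41; 0.0467% called), and it was higher in 3 of 3 knockouts. It passed the filter through the knockouts alone, so the filtered edgeR call (adjusted p = 3.4e-04) is not used as support. How small the p-value is thus depends on the filter, and the fit without it called 15 genes here, against 2 with it. In that table Tgif2 had −0.52 ± 0.12, lower in 3 of 3 knockouts, with an adjusted p of 1.00 with the filter (0.0102% called) and 0.0202 without it. With replicates 4 to 6 alone Tgif2 had 0.038 ± 0.085 and an adjusted p of 1.00 (0.0106% called). The difference between the knockout effects of the tables, a test added once these values were known, was 8.60 ± 1.54 for Tgif2-ps2 with an adjusted p of 0.480. Among all 20258 genes tested 0 were called there, with 440 at an unadjusted p under 0.05. Without the filter the same difference had an adjusted p of 7.6e-04 (0.00879% called), and with DESeq2, which called 2 genes (0.00586%), an adjusted p of 3.7e-05. For Tgif2 it was −0.57 ± 0.14 with an adjusted p of 1.00.

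The Dmrt2 and Hmx3; Hmx2 effects on Tgif2-ps2 pointed in opposite directions, and their difference was tested over the 18 libraries of both lines. The fit takes 1 knockout effect for the whole Hmx3; Hmx2 line, although only replicates 1 to 3 showed one. Replicates 4 to 6 alone gave −0.17 ± 1.73 for the copy without the filter, so the difference is not one of the whole line. Without the filter Tgif2-ps2 was called with a Dmrt2 effect minus Hmx3; Hmx2 effect of −12.74 ± 2.12 on the log2 scale (adjusted p = 0.0258; 0.199% of genes called), and with DESeq2 it was −10.63 ± 2.32 (adjusted p = 0.00175; 0.709% called). With the filter, which the copy passed only through its 5 high libraries, the adjusted p was 0.0237 (0.248% called). In fits with the filter, the call ended without Dmrt2 KO replicate 1, 2 or 3 (adjusted p = 0.0687, 0.104 and 0.101) or control replicate 3 (0.0623), and held without control replicate 1 (0.0310) or 2 (3.3e-04). Tgif2 had a difference of 0.39 ± 0.17 (adjusted p = 0.578), Tcea1 of 0.14 ± 0.07 (0.659) and Tcea1-ps1 of −0.53 ± 0.66 (0.912), none of them called. No size is read for Sycp1, whose Dmrt2 libraries held 2 reads in all.

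**Figure D4:**
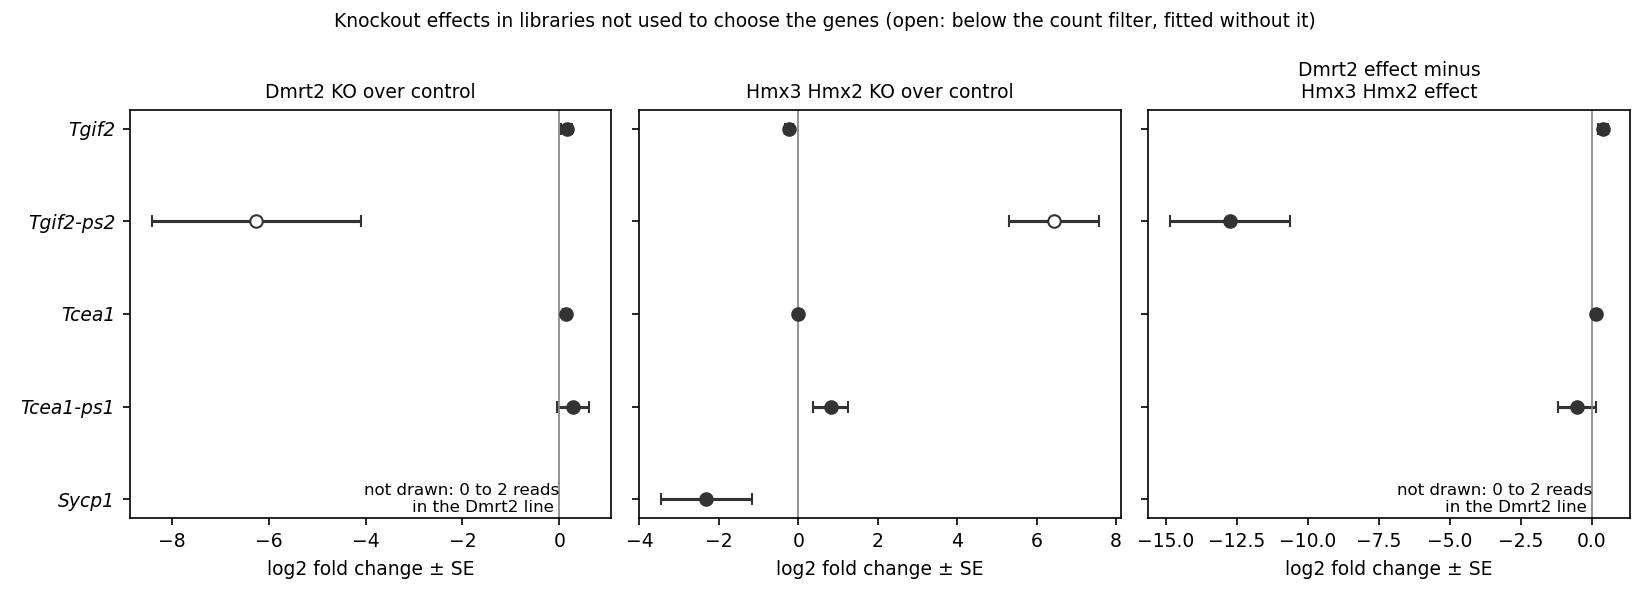
Log2 fold change with SE (x axes) of each gene (rows) in the Dmrt2 comparison, the Hmx3; Hmx2 comparison and their difference, positive where the knockout is higher. Tgif2-ps2 lies at −6.26 in the Dmrt2 line and 6.44 in the Hmx3; Hmx2 line, both without the filter (open points), and at −12.74 for the difference. The Hmx3; Hmx2 value rests on replicates 1 to 3, since replicates 4 to 6 alone gave −0.17 without the filter. Its size depends on the method, at 4.29 with DESeq2.

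Over the 24 libraries Tgif2-ps2 had no intermediate values. In 16 libraries it held 0 to 4 reads and in 8 it held 182 to 567 reads. Sycp1 was divided likewise, with 0 to 2 reads in 15 libraries and 28 to 162 in 9. The libraries in which each was read were not the same: 5 held both, 3 only Tgif2-ps2, 4 only Sycp1 and 12 neither. Tcea1-ps1 was read in all 24, from 8 to 236 reads. Levels of different genes can be compared only roughly per kilobase of annotated exon, since the transcripts read may be shorter. On that scale the group means in libraries labelled triple knockout were 19.0 for Tcea1 and 4.14 for Tgif2-ps2. They were 2.41 for Tgif2, 2.18 for Tcea1-ps1 and 0.382 for Sycp1, all in CPM per kilobase. The ranges of Tgif2-ps2 (SD 1.91) and Tgif2 (SD 0.50) overlapped. With 3832 bases taken for Tgif2, the copy was above its parent within each library. Those of Tgif2 and Tcea1-ps1 (SD 0.15) overlapped too, while Tgif2-ps2 (2.48 to 6.22) lay above Tcea1-ps1 (2.01 to 2.31). Over the 6 groups the mean of Tcea1 was 18.3 to 21.9 and that of Tgif2 2.32 to 3.20 CPM per kilobase.

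Other copies of the same parents held few reads or none. Tgif2-ps1, a second processed copy on chromosome 4 with 31 substitutions and 2 gaps against Tgif2, held 0 reads in every library, although none of its 564 stretches of 150 bases is found unbroken in Tgif2. At the parent's positions 485 and 569 both copies carry the same change from Tgif2 (T219G and T303A in Tgif2-ps2, T218G and T302A in Tgif2-ps1). Gm15223, a copy of Tcea1 on the X chromosome, and the homeobox genes Tgif2lx1 and Tgif2lx2 also held 0 reads in all 24. Gm12112, on chromosome 11, matches Tcea1 over 231 bases with an identity of 100%, so reads within it fit both places. It had 1 to 14 reads, at most 0.255 CPM. Over all libraries it held 175 reads, against 1306 of Tcea1-ps1.

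Genes that overlap the members were read separately. Counting without strand cannot tell Tgif2 from the antisense genes 5430405H02Rik (1.74 to 3.38 CPM) and Gm37790 (0.627 to 2.26 CPM) where their exons overlap. Gm6104, a pseudogene inside Tcea1 on the other strand, had 0.120 to 0.926 CPM, and Gm37988 on the same strand had 0 reads. The 3 pseudogenes inside Sycp1 (Gm42816, Gm33952 and Gm33866) had 0 reads in every library.

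Around both copies and Sycp1 no other gene was called by edgeR. Of all genes, edgeR called 0.444% in the Dmrt2, 0.021% in the Hmx3; Hmx2 and 1.03% in the triple comparison. Within 1 Mb of the start of Tgif2-ps2 5 or 6 of 51 genes could be tested, within 1 Mb of Tcea1-ps1 8 or 9 of 27, and within 1 Mb of Sycp1 17 to 21 of 59, and 0 passed in any comparison by edgeR's quasi-likelihood test. At an unadjusted p under 0.05, reached by 12.3% of all genes in the Dmrt2, 4.93% in the Hmx3; Hmx2 and 17.9% in the triple comparison, there were 1 of 5, 1 of 5 and 0 of 6 genes near Tgif2-ps2. Near Tcea1-ps1 there were 3 of 8, 0 of 8 and 5 of 9, and near Sycp1 3 of 20, 1 of 17 and 1 of 21. DESeq2 called 2 of 7 genes near Tcea1-ps1 in the triple comparison (5.69% of all genes called), Cpne8 and Kif21a, named here after their values were seen. Near the parent Tgif2, Tldc2, which encodes a TLDc-domain protein and starts 247048 bases away, was called in all 3 comparisons. It had 9.74, 9.99 and 9.08 CPM in Dmrt2 KO libraries, against 1.27, 1.41 and 1.62 CPM in controls (log2 fold change 2.73 ± 0.14 SE, adjusted p = 9.9e-07). In Hmx3; Hmx2 KO libraries it had 0.0303 to 0.107 CPM, against 0.503 to 1.42 CPM in controls (−3.47 ± 0.34, adjusted p = 1.4e-04), and in libraries labelled triple knockout 5.20, 4.16 and 6.76 CPM, against 0.743, 1.27 and 0.828 CPM in controls (2.48 ± 0.24, adjusted p = 0.00183). The groups did not overlap for Tldc2 in any of the 3. The call held in all 10 alternative fits of the Dmrt2 and of the triple comparison and in 7 of 9 of the Hmx3; Hmx2 comparison.

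Of the genes within 1 Mb of Tgif2, 7 of 45 in the Dmrt2, 3 of 42 in the Hmx3; Hmx2 and 12 of 47 in the triple comparison had an unadjusted p under 0.05, Tldc2 among them each time. Of all genes tested, 12.3%, 4.93% and 17.9% reached that unadjusted p in the same order. DESeq2 called 5 of 42, 1 of 62 and 5 of 41 near Tgif2, against 2.43%, 0.0147% and 5.69% of all genes. Near Tcea1 the unadjusted counts were 1 of 10, 0 of 9 and 1 of 10, and DESeq2 called 1 gene, Atp6v1h in the triple comparison. The other calls by edgeR near the parents did not hold in most fits that left out a library. 4930405A21Rik, a noncoding gene 125467 bases from the start of Tgif2, was higher in libraries labelled triple knockout (1.13, 1.45 and 1.35 CPM, against 0.571, 0.684 and 0.533 CPM in controls; log2 fold change 1.11 ± 0.23, adjusted p = 0.0489), and 0 of 6 fits that left out a library called it. Atp6v1h, a subunit of the vacuolar proton pump 212204 bases from the start of Tcea1, was lower (57.7, 56.8 and 57.2 CPM, against 68.5, 68.4 and 65.0 CPM in controls; −0.26 ± 0.05, adjusted p = 0.0392), and 1 of 6 such fits called it.

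The genes whose profile over the 24 libraries was most like each member were sought among 17747 others with at least 0.5 CPM in 3 or more libraries. Likeness was the root mean square difference of log2(CPM + 0.5) profiles scaled to mean 0 and SD 1, whose median over all candidates was 1.40 for Tgif2-ps2. The 5 nearest to Tgif2-ps2 were the pseudogene Gm8162 (0.439), Bpifb5 (0.528), Ppp1r16b (0.532), Gm46620 (0.596) and Necab3 (0.635). Of these, 3 lie on chromosome 2, which holds 7.68% of the candidates, and none on chromosome 17 with the copy itself. Bpifb5, of the BPI fold family of secreted lipid-binding proteins, starts 2.62 Mb from the parent Tgif2. Ppp1r16b, a regulatory subunit of protein phosphatase 1 known from endothelium, starts 1.83 Mb from it, and Necab3, a calcium-binding protein, 2.30 Mb.

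Their levels show the likeness library by library. Ppp1r16b had 57.2, 72.4 and 55.2 CPM in libraries labelled triple knockout, against 43.5, 44.8 and 44.9 CPM in controls. In the Dmrt2 line it had 34.7, 35.9 and 34.6 CPM in knockouts and 46.7, 30.5 and 56.6 CPM in controls, with controls 1 and 3 high as for the copy. In the Hmx3; Hmx2 line knockouts 1 to 3 had 53.2, 55.2 and 54.0 CPM and knockouts 4 to 6 had 39.4, 39.5 and 38.0 CPM, against 37.9 to 44.4 CPM in the 6 controls. The 8 libraries with 182 or more reads of the copy are thus also the 8 highest for Ppp1r16b. Gm8162 went the same way at a low level in the Dmrt2 line, with 0.724, 0.103 and 0.703 CPM in controls 1 to 3. The Dmrt2 KO libraries had 0.0650 to 0.207 CPM. Over all libraries Gm8162 was not divided as cleanly. It had 0.385 CPM in Hmx3; Hmx2 control 1, which held 2 reads of the copy. In replicate 3 labelled triple knockout, with 272 reads of the copy, it had 0.372 CPM.

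**Figure D5:**
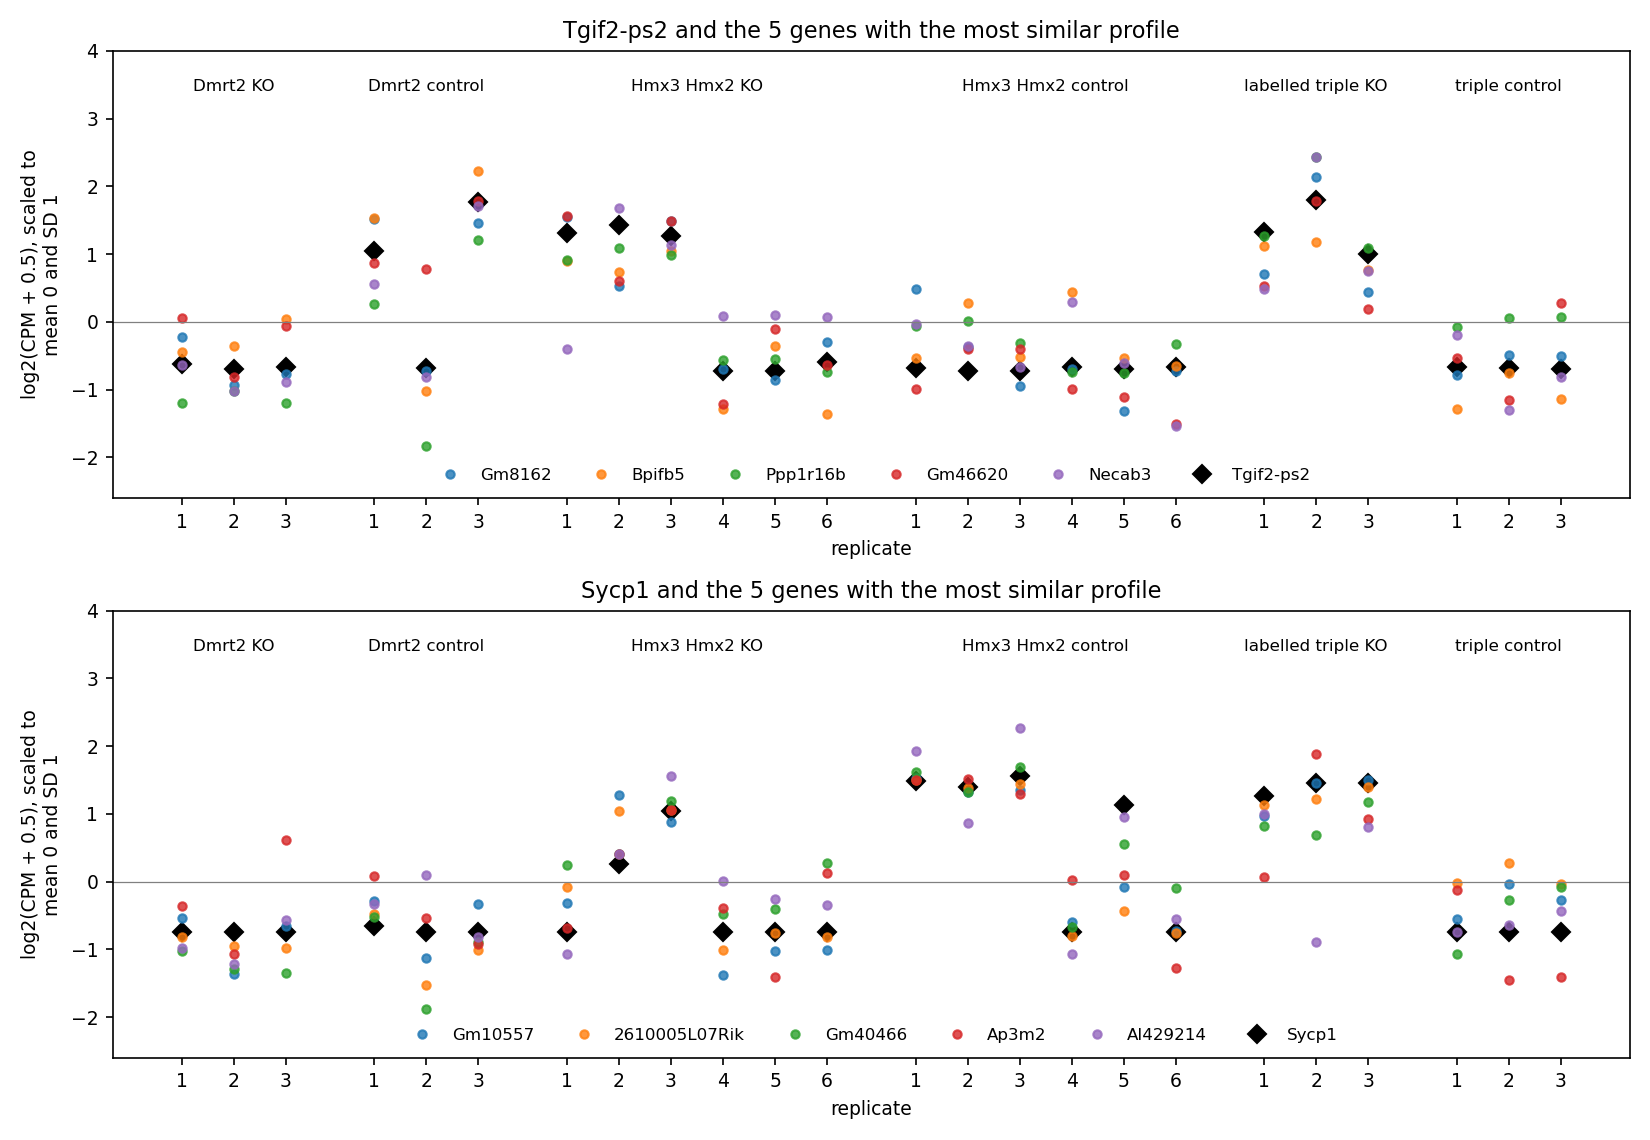
Profiles of Tgif2-ps2 (top, black diamonds) and Sycp1 (bottom) with the 5 genes most like each (coloured points), as log2(CPM + 0.5) scaled to mean 0 and SD 1 (y axes) in each library (x axes, replicate number within group). Dmrt2 control 2 sits with the low libraries in the top panel, except for Gm46620, and controls 1 to 3 of the Hmx3; Hmx2 line sit high in the bottom panel.

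The 5 genes most like Sycp1 were the pseudogenes Gm10557 (0.472), 2610005L07Rik (0.533) and Gm40466 (0.542), then Ap3m2 (0.637) and AI429214 (0.651). Here 4 of the 5 lie on chromosome 8, which holds 5.27% of the candidates, between 20016466 and 37462687, while Sycp1 is on chromosome 3. 2610005L07Rik had 35.8, 37.2 and 39.96 CPM in libraries labelled triple knockout, against 22.0, 24.9 and 21.8 CPM in controls. In Hmx3; Hmx2 replicates 1 to 3 it had 21.4, 34.4 and 34.7 CPM in knockouts and 41.8, 39.7 and 40.8 CPM in controls, and the knockout without Sycp1 reads was again the lowest. In replicates 4 to 6 it had 14.4, 16.05 and 15.6 CPM in knockouts and 15.7, 18.4 and 16.02 CPM in controls. Ap3m2, a subunit of an adaptor complex of vesicle sorting, ranged from 9.37 to 13.5 CPM over all libraries.

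For Tcea1-ps1 the 5 nearest were less close, from 0.675 to 0.738: Slc4a9, Mab21l3, 4930405A21Rik, Gm42658 and Gramd2. They are spread over chromosomes 2, 3, 9 and 18, with none on chromosome 15 or 1. Slc4a9, an anion exchanger of intercalated cells, had 78.9, 83.7 and 99.99 CPM in libraries labelled triple knockout, against 40.1, 47.5 and 38.9 CPM in controls. In Dmrt2 KO libraries it had 76.8, 66.6 and 63.5 CPM, against 49.0, 46.1 and 48.8 CPM in controls. With a pseudocount of 0.1, 5 of 5 of these nearest genes were kept for Tgif2-ps2 and for Sycp1 and 4 of 5 for Tcea1-ps1.

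Partners of the parents were nearly all uncalled, as were nearly all genes. By edgeR 0.444% of all genes were called in the Dmrt2, 0.021% in the Hmx3; Hmx2 and 1.03% in the triple comparison. At such shares, few or no calls in lists this short say little about the lists. Of 16 TGIF and SMAD genes, including the paralog Tgif1, the receptor gene Tgfbr2 and the corepressors Ski and Ctbp1, 16 were tested in each comparison and 0 were called by edgeR or by DESeq2. At an unadjusted p under 0.05 there were 4 of 16 in the Dmrt2, 0 in the Hmx3; Hmx2 and 2 in the triple comparison, against 12.3%, 4.93% and 17.9% of all genes. The median log2 fold change of this list was 0.042 in the Dmrt2, −0.0036 in the Hmx3; Hmx2 and 0.020 in the triple comparison, against −0.0021, −0.0052 and 0.00098 over all genes. Of 23 elongation genes 23 were tested each time and 1 was called, in the triple comparison: Tcea3, a tissue-restricted TFIIS gene. It had 14.8, 13.5 and 13.2 CPM in libraries labelled triple knockout, against 7.74, 9.37 and 10.5 CPM in controls (log2 fold change 0.56 ± 0.11, adjusted p = 0.0401), and 1 of 6 fits that left out a library called it. Tcea2, the testis-enriched member, had 0.41 ± 0.09 with an adjusted p of 0.0633. DESeq2 called both in the triple comparison (5.69% of all genes called) and Tcea3 in the Dmrt2 comparison (2.43%), where it had 16.8, 19.0 and 20.6 CPM in Dmrt2 KO libraries and 16.6, 12.9 and 9.28 CPM in controls.

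Kidney and gonad markers were set beside the meiotic gene. All 12 kidney markers were expressed in every library, among them Slc34a1 of the proximal tubule (941 CPM or more). Germ cell markers were low, with a summed level of 4.90 to 6.15 CPM over 15 genes in libraries labelled triple knockout, against 3.41 to 5.67 CPM in controls. The most abundant of them were Tdrd1, with 1.76 to 4.35 CPM over the 24 libraries, Tdrd9 (0.327 to 1.10), Ddx4 (0.223 to 0.891) and Piwil2 (0.205 to 0.613), which act in the piRNA pathway or mark germ cells. At the other end of the list Dazl had at most 10 reads, Pou5f1 and Dppa3 at most 2, and Figla and Mov10l1 0 in all 24 libraries. Summed levels of 23 meiotic genes were 52.4 to 69.6 CPM in libraries labelled triple knockout, against 45.9 to 54.1 CPM in controls. The most abundant were the mismatch repair gene Mlh3, Syce2 of the synaptonemal complex, the meiotic cohesin gene Rec8 and Msh5. Rec8 had 7.44 to 19.6 CPM in libraries labelled triple knockout, against 1.36 to 6.17 CPM in controls (log2 fold change 1.89 ± 0.86, adjusted p = 0.353, edgeR's quasi-likelihood test), and the groups did not overlap. Over all 24 libraries it ran from 1.01 to 28.2 CPM. Syce3 of the synaptonemal complex and Hormad1 of the chromosome axis had 0 reads throughout, and Sycp3 had at most 83. The 10 gonad somatic genes came to 52.7 to 64.8 CPM, against 43.8 to 52.1 CPM in controls, mostly Sox9, which the kidney also expresses. By edgeR 0 of the 12 kidney, 4 germ cell and 5 gonad genes that could be tested were called in any comparison. Of all genes, edgeR called 0.444% in the Dmrt2, 0.021% in the Hmx3; Hmx2 and 1.03% in the triple comparison. DESeq2 called 1 of 12 kidney genes in the Dmrt2 comparison and 1, Lrp2, in the triple comparison (2.43% and 5.69% of all genes). At an unadjusted p under 0.05 there were 2, 1 and 1 of 12 kidney genes in the Dmrt2, Hmx3; Hmx2 and triple comparisons, 0 germ cell genes and, in the triple comparison, 2 of 5 gonad genes, against 12.3%, 4.93% and 17.9% of all genes. The part of these cell types in the Sycp1 level was not tested.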

How the data were processed

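The authors deposited raw read counts for 54393 genes in 4 tables. The Hmx3; Hmx2 line has 2 of them, 1 with replicates 1 to 3 and 1 with replicates 4 to 6. Per the labels' protocols, RNA of whole embryonic kidney was poly(A)-selected and read at 150 bases. Per the submitters' processing notes, reads were processed with fastp 0.20.1, STAR 2.7.0e and featureCounts 2.0.1 on mm39. The version of the counting program in the file headers is 2.0.3. Per the file headers, exons of a filtered GENCODE vM29 annotation were summed by gene name in paired mode, without options for strand, for multi-mapping or overlapping reads, or for counting read pairs. Each mate of a pair therefore adds 1 to a count, and small counts were mostly even (87.9% to 94.1% of those from 1 to 19). Exon lengths are those of the deposited tables. Left out were 2 table columns without a matching sample.

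CPM divides the reads of a gene by all counted reads of its library and multiplies by a constant. Tests used edgeR 4.0.16 (R 4.3.3), with TMM factors and genes kept by filterByExpr. That filter asks for about 10 reads, scaled to library size, in as many libraries as the smallest group holds, and 15 in total. The test was the robust quasi-likelihood F test, with Benjamini-Hochberg adjustment over all genes tested, called at 0.05. The Hmx3; Hmx2 fit had the table as a term, and the difference between lines was fitted over 18 libraries. The SE was taken as the size of the log2 fold change over the root of F, and knockout over control is positive where the knockout is higher. The procedure was tested on simulated data. Alternatives were DESeq2 1.42.0, its size factors in edgeR, no filter, a replicate block, no table term, each table alone and leaving out each library. Groups and replicate numbers come from the titles.

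The genes named are the members, the targeted genes, other copies of the parents (Gm12112, at most 0.255 CPM, lies below the 0.5 CPM minimum set for naming and is given with the copies at 0 reads), the 5 genes most like each of 3 members, overlapping genes and genes within 1 Mb that were called, and list genes that were called or most abundant. Tgif1, Tcea2, the germ cell markers given by level and genes called by DESeq2 alone or named for an unadjusted p were chosen after their values were seen. The members and lists were chosen with earlier results of these data known. The 6 lists were 12 kidney, 24 meiotic, 15 germ cell, 10 gonad somatic, 16 TGIF and SMAD and 23 elongation genes. Sequences are GENCODE vM21 transcripts (GRCm38), aligned with Biopython 1.88 and searched with blastn 2.17.0 (90% identity over 200 bases or more); coordinates are those of the deposited tables (mm39).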

Additional observations from a re-analysis of the deposited data

Results flagged for a closer look

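Among 10 groups of 6 libraries examined (5 genes in the Hmx3; Hmx2 knockouts and controls), 1 held a library far from the others: Tcea1-ps1 in Hmx3; Hmx2 knockout replicate 6, at 1.45 CPM, with the next library at 0.636 CPM and the lowest at 0.251 CPM. The gap took up 0.678 of the range of the group, above Dixon's 95% critical value of 0.625 for 6 samples, a limit that chance passes in about 1 of 20 groups.

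The knockout effect on Tgif2-ps2 differed between the lines by −12.74 on the log2 scale (Dmrt2 minus Hmx3; Hmx2, edgeR's quasi-likelihood test over 18 libraries, adjusted p = 0.0258 without the filter on low counts and 0.0237 with it). The copy passed that filter only through its high libraries, and the call was lost in 4 of 6 fits that left out a Dmrt2 library (adjusted p = 0.0623 to 0.104). The copy was under the floor of 6 reads in 3 of 3 Dmrt2 knockouts and high in 2 of 3 of their controls, and it was high in 3 of 6 Hmx3; Hmx2 knockouts and under it in 6 of 6 of their controls.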

How the results depend on the processing

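Calls were compared with edgeR's quasi-likelihood test at an adjusted p of 0.05. The Dmrt2 comparison called 88 genes, DESeq2 417, the fit without filter 676, and fits leaving out a library 26 (without KO replicate 2) to 195 (without control replicate 1). The triple comparison called 222 genes, DESeq2 1021, the fit without filter 1510, and fits leaving out a library 20 (without KO replicate 3) to 438 (without control replicate 3). The Hmx3; Hmx2 comparison called 4, each table alone 2, and without filter 15 (replicates 1 to 3) and 24 (replicates 4 to 6). With replicate number as a block, 80, 5 and 51 genes were called in the Dmrt2, Hmx3; Hmx2 and triple comparisons. Libraries with the same number did not deviate together in every pair (correlations −0.166 to 0.216). These were not compared with differently numbered pairs, so whether same-numbered samples share more than a number was not tested. The block called none of the members tested.

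The difference between lines for Tgif2-ps2 was −10.63 in DESeq2 and ran from −13.33 to −11.54 without 1 Dmrt2 library. For Sycp1 it was −0.17 in edgeR, 2.48 in DESeq2 and −0.71 to 2.39 without 1 Dmrt2 library, on 2 reads in the Dmrt2 line. In the Hmx3; Hmx2 line the direction of Tgif2 reversed in replicates 4 to 6 alone (0.038, and 0.036 without filter) and that of Tcea1 in replicates 1 to 3 alone (0.034, and 0.029 without filter), each against a value that was not called. Leaving out Dmrt2 libraries from the difference between lines, the difference between tables and the unfiltered fits of single tables were added after the data were seen. The causes were not tested. At these depths a gene under 6 reads in a library cannot be told from one that is not read.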
